A study of Arabidopsis thaliana with 12 samples.

Results

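The transcripts of the mitochondrial genome were followed in Arabidopsis root tips through the rows of the expression table whose gene ID begins with ATMG. Of 32833 rows, 152 carry such an ID, and the 42 with a mean of at least 1 normalized count over the 12 libraries are the members described here. The rule used the mean over all libraries and neither genotype nor treatment. At its edge, ATMG00200 (1.17) and ATMG00480 (1.42) stood just inside and ATMG00570 (0.879) and ATMG01020 (0.792 normalized counts) just outside, and 63 ATMG rows held no read in any library. The libraries came from wild-type Col-0 and from ago10-1, a mutant line made in Col-0 by T-DNA insertion and lacking the small RNA-binding protein AGO10, each without treatment (called mock in the labels) or 2 h after spraying with the synthetic cytokinin BAP (6-benzyladenine), with 3 libraries in each of the 4 groups. All seedlings were grown on plates to 6 days after germination, and each sample was 50 mg of root tips of 1 mm, so a library pools many roots, and fewer cells rich in mitochondria and less mitochondrial RNA per cell cannot be told apart. The labels number the samples as biological replicates. A pair of Col-0 mock columns bear the same replicate number and are called library A and library B, since their group is certain and their number is not.

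Plant mitochondria keep a small genome of their own beside the nuclear one. It encodes core subunits of the respiratory chain and of the ATP synthase, proteins that attach heme to cytochrome c, part of the mitochondrial ribosome, ribosomal RNAs and some tRNAs, while most mitochondrial proteins are encoded in the nucleus and imported. Mitochondrial transcripts are made by phage-type RNA polymerases, spliced and edited by nuclear-encoded factors, and in plants poly(A) tails mark them for decay. Large pieces of mitochondrial DNA have been copied into the nuclear chromosomes, in Arabidopsis above all into chromosome 2.

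How far a read can be placed in the mitochondrial genome at all was read from the reference. In the RefSeq assembly TAIR10.1, 70.6% of all 50-base windows of the mitochondrial genome stood letter for letter in a nuclear chromosome as well, 8.66% were repeated inside the mitochondrial genome, and 28.9% occurred nowhere else. A block on chromosome 2 consists almost wholly of such copies (chr2:3239038-3509765, 270728 bases), where 95.9% of the windows matched the mitochondrial genome. Of the 33 mitochondrial protein genes in RefSeq, 14 had no window of their own, 5 shared no window with another place (atp4, ccmB, cox1, nad4L and nad9), and 14 lay between. The rRNA genes rrn26 and rrn5 were found nowhere else, and rrn18 kept 99.6% of its windows. The mitochondrial genome of this assembly is not the one in the authors' annotation, so these shares describe RefSeq's genes and no ATMG row is given a position.

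**Figure D1:**
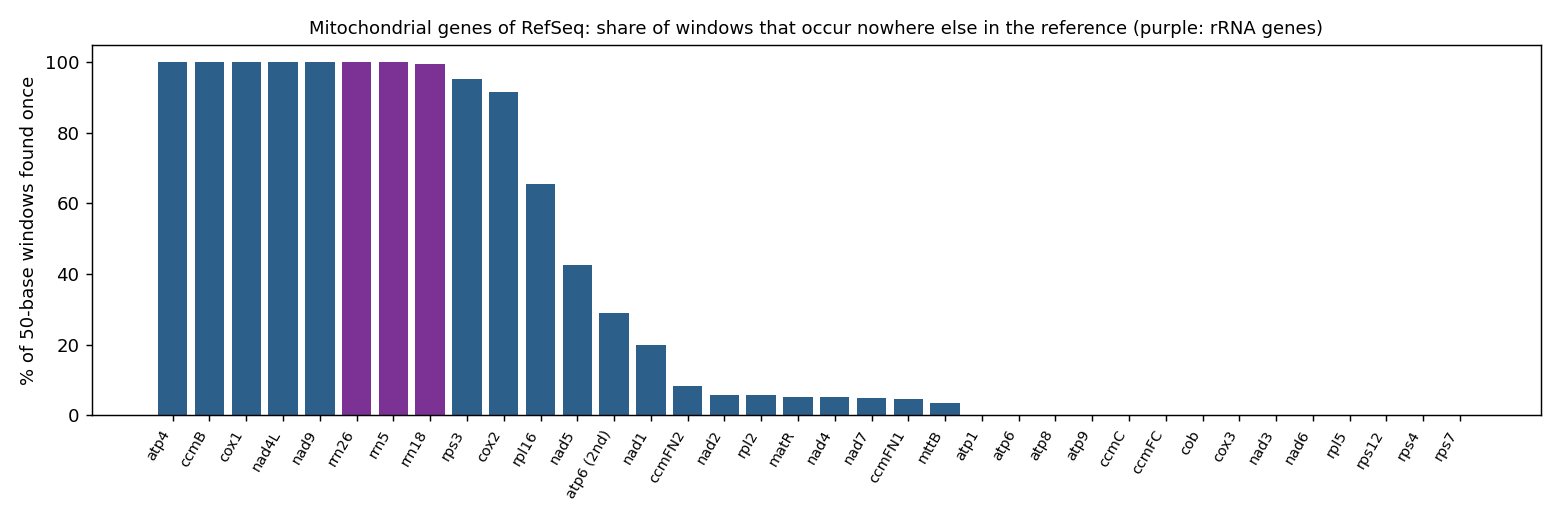
Share of 50-base windows that occur once in the reference (y axis, percent) for each protein and rRNA gene of the RefSeq mitochondrial genome (x axis). The 3 rRNA genes, in purple, stand at 99.6% or 100%, and 14 protein genes stand at 0%.

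Sequences of 3 RefSeq genes show the range. They were chosen as a gene copied whole, a gene copied with a single difference and a gene without a copy. Capitals mark bases that lie in no 50-base run shared with another place, except in the ccmFN1 pair, where the capital marks the base that differs.
atp9: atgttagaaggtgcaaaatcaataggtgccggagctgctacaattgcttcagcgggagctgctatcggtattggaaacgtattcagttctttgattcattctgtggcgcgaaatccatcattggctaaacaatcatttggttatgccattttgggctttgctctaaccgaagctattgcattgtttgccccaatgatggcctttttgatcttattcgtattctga
ccmFN1: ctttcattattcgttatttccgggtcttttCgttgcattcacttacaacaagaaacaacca
ccmFN1 copy: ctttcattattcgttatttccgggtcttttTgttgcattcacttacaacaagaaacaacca
rrn5: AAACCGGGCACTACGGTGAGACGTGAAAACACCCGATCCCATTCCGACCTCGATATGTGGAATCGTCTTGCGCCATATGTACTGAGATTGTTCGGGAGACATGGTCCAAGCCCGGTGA
All 225 bases of atp9, the membrane ring subunit of the ATP synthase, stood unchanged at chr2:3251856-3252080 on the minus strand, inside AT2G07671. In the 1149 bases of ccmFN1, a gene for heme attachment to cytochrome c, only 1 base lay in no shared run. That base carries the difference C31T, counted from the 5′ end of the 61 bases shown, with the mitochondrial base first and the base of the copy (chr2:3297913-3297973, plus strand, in AT2G07783) last. All 118 bases of rrn5, the 5S ribosomal RNA, were in capitals.

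Neither the table nor RefSeq pairs the ATMG IDs with gene names, and 0 of the 152 rows had a locus tag there. Descriptions came only from RefSeq's notes on nuclear genes that resemble a mitochondrial one. They name 53 ATMG rows, 13 of them members, and describe the protein for 12 members, 2 of these as unknown. The other 29 members are given by ID only. Levels differed between the rows named in such notes and the rest. Of the 53 named rows, 1 reached a mean of 10 normalized counts, and of the 99 others 19 did. The median over the 53 rows was 0.0614 and over the 99 rows 0.187 normalized counts. The highest mean among the named rows was 12.04, in ATMG01090. How the authors treated reads with several placements is not given in the sources used here, so its part in these levels was not tested.

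**Figure D2:**
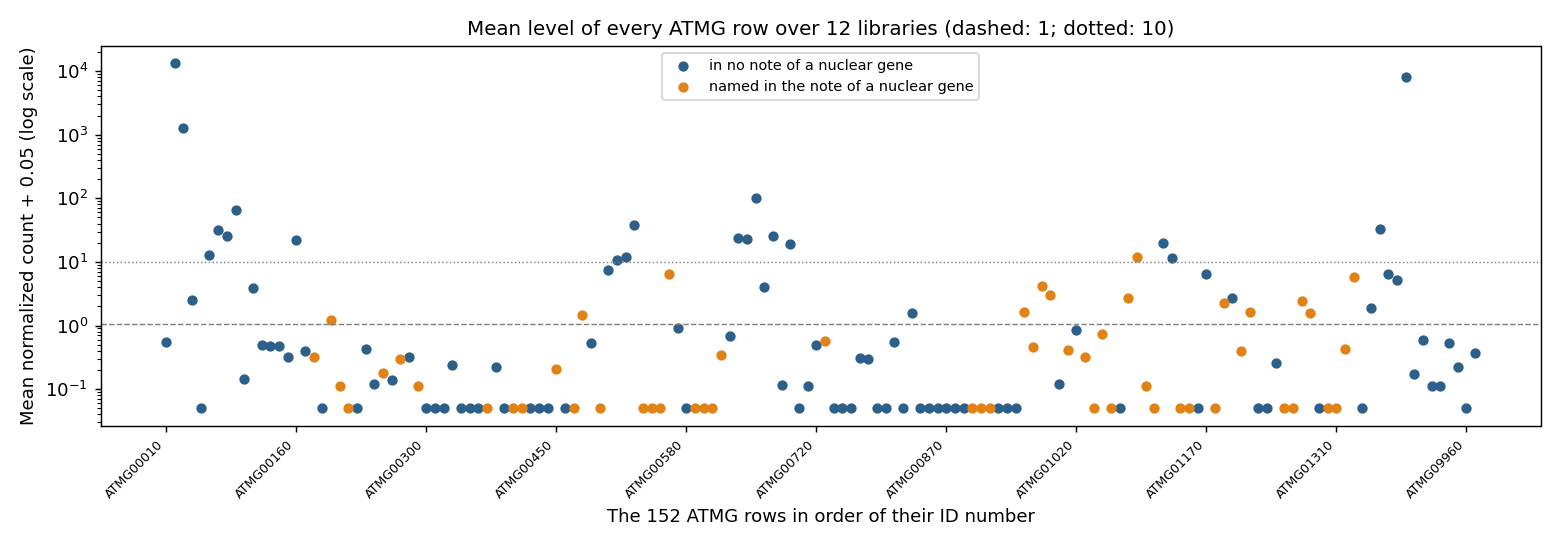
Mean normalized count plus 0.05 over 12 libraries (y axis, log scale) for the 152 ATMG rows in order of ID (x axis), coloured by whether a RefSeq note of a nuclear gene names the row. One orange point, ATMG01090 at 12.04, lies above the dotted line at 10, and 3 blue points lie above 1000.

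The 3 rows of highest mean carried nearly all of the signal. ATMG00020 had a mean of 13307, ATMG01390 of 8219 and ATMG00030 of 1267 normalized counts, against 102 for the next row, ATMG00660. Together they held 96.1% to 99.0% of the members' normalized counts in each library. Their order was the same in all 12 libraries. These levels are not divided by length, since no length was paired with the IDs, so the order is one of reads and not of molecules. None of the 3 IDs is described in a source used here.

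The members below them were thinly read. Next by mean were ATMG00090 (65.9), ATMG00520 (37.8), ATMG01360 (33.4), ATMG00070 (31.5), ATMG00080 (25.5) and ATMG00670 (25.2 normalized counts). In all, 20 members reached the mean of 10 normalized counts that was required for a test, and 17 of these lay between 10.8 and 102. The other 22 members had means of 1.17 to 7.47 and 13 to 93 reads over all libraries, and 20 of the 22 had no read in at least 1 library. A count of 0 in 1 library allows up to 3 reads, which is 2.21 to 4.11 normalized counts depending on the library and covers counting error only.

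All 12 rows with a described protein were among the thinly read ones. A row is described only where a nuclear gene resembles it, so these rows do not stand for their classes. Members given by ID only could not be assigned to a class. ATP synthase subunits were described for 4 members. ATMG01090, described as ATP synthase 9, had a mean of 12.04, ATMG01080, also described as subunit 9, 2.71, ATMG01190, described as subunit 1, 2.20, and ATMG00480, described as subunit 8, 1.42 normalized counts. Complex I takes electrons from NADH, and the rows described as parts of it, ATMG00990 (NADH dehydrogenase 3) and ATMG01275 (NADH dehydrogenase 1A), stood at 2.99 and 2.38. ATMG01280, whose note gives only a likeness to the transmembrane domain of cytochrome c oxidase subunit II, stood at 1.52. ATMG00960, described as a cytochrome c assembly protein, stood at 1.58, and ATMG00980, described as a ribosomal protein of the S12 family, at 4.10. ATMG00560, described as a nucleic acid-binding protein with an OB-fold, stood at 6.40, and the unknown proteins ATMG01220 and ATMG00200 at 1.60 and 1.17 normalized counts.

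The nuclear rows that the notes pair with these members showed no common order. AT2G07715 on chromosome 2 (chr2:3410597-3413161), the partner of ATMG00560, had a mean of 74.6 normalized counts and ranged from 52.4 to 100 over the libraries. AT2G07698, the partner of ATMG01190, had a mean of 25.6. AT2G07777, the partner of ATMG01090, had 0.643, and 4 of the 12 partners had no read. Inside the block on chromosome 2 the table holds 124 genes, of which 61 had no read and 4 a mean of at least 10, and their summed level ran from 197 to 309 normalized counts per library.

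The question put to the members by the design was whether BAP or the loss of AGO10 changed them. AGO10 itself (AT5G43810) had 883 ± 174 normalized counts in Col-0 mock and 167 ± 25.6 in ago10-1 mock, and 848 ± 250 and 158 ± 23.9 after BAP (SD, n = 3 each), and no ago10-1 library overlapped a Col-0 library. Root markers were present in every library, with medians of 563 for PLT1, 332 for PLT2, 1195 for SHR, 1415 for SCR and 18.1 normalized counts for WOX5. Of 6 markers of green shoot tissue 4 were at 0 in some libraries (RBCS1A in 2, RBCS2B in 9, LHCB1.1 in 6 and LHCB2.1 in 6). LHCA1 and PSBO1 were read in all, with medians of 57.1 and 278 normalized counts. Between 19394256 and 34899796 reads (median 23987382) fell on genes in a library, and the members took 0.0514% to 0.169% of them.

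The summed level of the 42 members did not separate the groups. In Col-0 it was 23095 in mock replicate 1, 17134 in library A and 21425 in library B, and 44857, 20438 and 13197 normalized counts in BAP replicates 1, 2 and 3. In ago10-1 it was 28907, 13895 and 18743 in mock replicates 1, 2 and 3, and 40933, 17586 and 20077 after BAP. In every group replicate 1 was the highest library, and each pair of groups overlapped. In ago10-1 each BAP library stood above the mock library of its replicate number, a pairing that the permutation tests did not use. The ratio of BAP to mock was 1.13 in Col-0 (p = 0.9) and 1.24 in ago10-1 (p = 0.6), and the ratio of ago10-1 to Col-0 was 0.961 without BAP (p = 1) and 1.06 after BAP (p = 1) in two-sided exact permutation tests of 3 libraries against 3 on the log2 sum, whose smallest possible p is 0.1. Without the replicate 1 libraries, an alternative chosen after seeing the data, the log2 ratios of BAP to mock were -0.22 in Col-0 and 0.22 in ago10-1, where they had been 0.17 and 0.31.

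The 3 abundant rows followed the same course. ATMG00020 had 12720, 8182 and 10031 normalized counts in Col-0 mock (replicate 1, library A, library B) and 29353, 11199 and 6878 in Col-0 BAP replicates 1, 2 and 3. In ago10-1 it had 17299, 8290 and 9424 without and 26644, 9132 and 10530 with BAP. BAP and mock libraries overlapped in both genotypes, and Col-0 BAP held both the lowest value of all (replicate 3) and the highest (replicate 1). The log2 fold change with BAP was 0.37 (standard error 0.51, unadjusted p = 0.486) in Col-0 and 0.31 (standard error 0.44, unadjusted p = 0.506) in ago10-1 from limma. It turned to -0.21 without Col-0 BAP replicate 1 and to -0.17 without ago10-1 BAP replicate 1. The latter fit kept mock replicate 1, the highest ago10-1 mock library. Within each replicate number of ago10-1 the BAP library stood above the mock library. With the replicate number as a block the unadjusted p in ago10-1 was 0.0216 from limma. With that block 5.1% of all genes had an unadjusted p under 0.01, which ATMG00020 did not reach. Of 19206 genes 2835 had one under 0.05.

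ATMG01390 had 8726, 7391 and 9394 normalized counts in Col-0 mock and 12892, 7307 and 5099 in Col-0 BAP. It had 9277, 4276 and 7776 in ago10-1 mock and 11676, 6814 and 7997 in ago10-1 BAP. ATMG00030 had 1087, 1069 and 1213 in Col-0 mock, 2164, 1254 and 706 in Col-0 BAP, 1760, 807 and 980 in ago10-1 mock, and 2153, 983 and 1030 in ago10-1 BAP. For both rows each pair of groups overlapped, and replicate 1 was the highest library in all groups but Col-0 mock, where library B was. Here too each ago10-1 BAP library stood above the mock library of its replicate number.

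**Figure D3:**
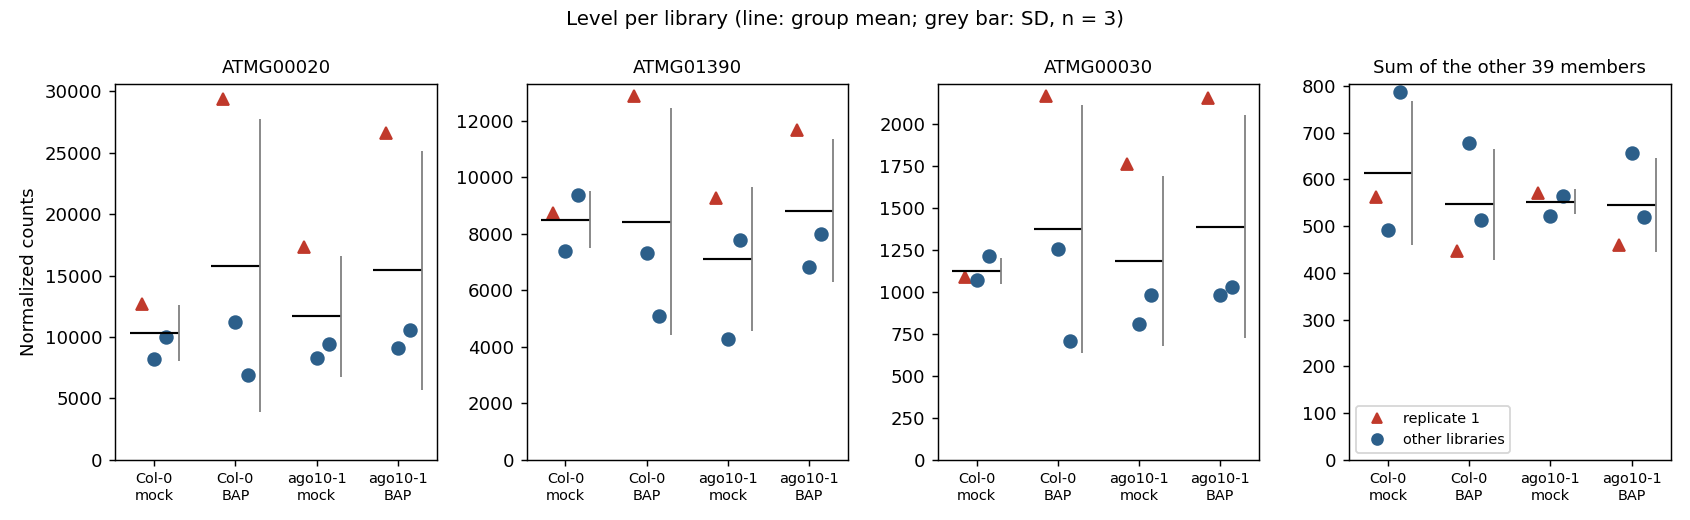
Normalized counts (y axis, from 0) in each of the 12 libraries by group (x axis) for ATMG00020, ATMG01390, ATMG00030 and the sum of the other 39 members, with the group mean as a line and the SD (n = 3) as a grey bar. Replicate 1, drawn as a triangle, is highest in 4 of 4 groups for ATMG00020 and in 1 of 4 for the summed other members.

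Gene by gene, limma called no member in a comparison of genotype or treatment. A gene was called at an unadjusted p under 0.01, the threshold of the study, and the background is the share of all 19206 genes tested that was called. With BAP in Col-0, 0 of 20 members were called (background 0.151%). There 1 member had an unadjusted p under 0.05, as did 226 of all 19206 genes. With BAP in ago10-1 it was 0 of 20 (background 0.568%), and none had an unadjusted p under 0.05. For ago10-1 against Col-0 it was 0 of 20 without BAP (background 0.437%) and 0 of 20 after BAP (background 0.13%), again with none under 0.05. For the interaction it was 0 of 20 (background 0.0208%) and for BAP over both genotypes 0 of 20 (background 1.48%), each with 1 member under 0.05. For ago10-1 over both treatments it was 0 of 20 (background 0.802%) with none. Of all genes, 89 lay under 0.05 for the interaction, 1211 for BAP over both genotypes and 594 for ago10-1 over both treatments. It was 793 with BAP in ago10-1, and 400 without and 111 after BAP between the genotypes. On the recovered reads edgeR and DESeq2 also called 0 members in all 7 comparisons. In that order, with edgeR, the backgrounds were 0.13%, 0.63%, 0.411%, 0.146%, 0.026%, 1.56% and 0.786%. With DESeq2 they were 0.386%, 1.52%, 0.63%, 0.267%, 0.0678%, 2.88% and 1.18%. With the replicate number as a block, limma called 5.1% of all genes with BAP in ago10-1 and 0.271% between the genotypes after BAP, and again 0 members. A count of 0 among 20 does not set the members apart from all genes at such backgrounds.

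The members' medians were small and moved with single libraries. The median log2 fold change of the 20 members was -0.11 with BAP in Col-0, where 6 were above and 14 below 0, and 0.09 with BAP in ago10-1, where 12 were above and 8 below. It was -0.15 for ago10-1 against Col-0 without BAP and 0.06 after BAP. With 1 library left out these medians ran from -0.23 (without Col-0 BAP replicate 1) to -0.04 (without Col-0 mock library B), from -0.04 (without ago10-1 BAP replicate 2) to 0.23 (without ago10-1 mock replicate 1), from -0.39 (without Col-0 mock library A) to -0.09 (without Col-0 mock library B) and from -0.16 (without Col-0 BAP replicate 3) to 0.19 (without ago10-1 BAP replicate 3). The medians of all genes in these 4 comparisons were each 0.01. In counts simulated on these libraries, a 2-fold change in a gene with a mean between 10 and 100 normalized counts was called in 21% of cases with BAP in Col-0 and 16% in ago10-1, and a 4-fold change in 60% and 64%. A change of that size in the 17 thin members could therefore have been missed at this depth. The simulation drew each gene on its own, without a deviation shared by the genes of a library. It called 0.863% of unchanged genes in Col-0 and 0.884% in ago10-1, against 0.151% and 0.568% of all genes in the data. The rates at which changes are called may therefore be lower in the data than in the simulation.

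**Figure D4:**
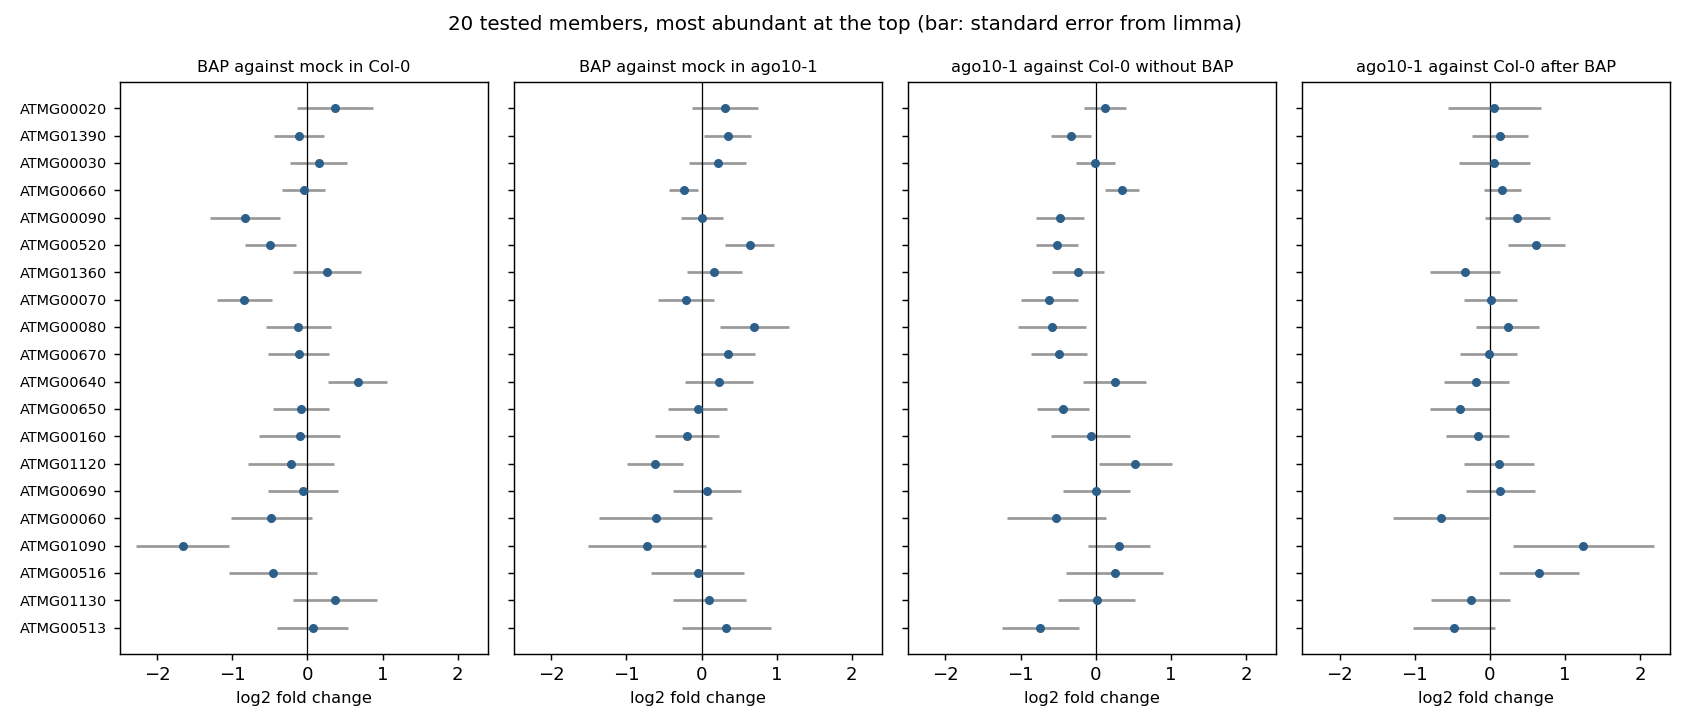
Log2 fold change of the 20 tested members (x axis) in the 4 comparisons of 2 groups, with the standard error from limma as a bar, ordered by mean level (y axis). No point was called, and ATMG01090 at -1.66 in Col-0 is the largest change.

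The smallest p with BAP in Col-0 belonged to ATMG01090, the row described as ATP synthase 9. It had 11.8, 13.9 and 14.7 normalized counts in Col-0 mock and 2.74, 7.15 and 2.12 in Col-0 BAP, from 10, 16 and 20 reads against 2, 6 and 2. In ago10-1 it had 22.02, 15.8 and 13.8 without and 2.25, 22.9 and 15.2 with BAP. The Col-0 groups did not overlap, and in ago10-1 only BAP replicate 1 was low. The log2 fold change was -1.66 (standard error 0.61, unadjusted p = 0.0313, adjusted p = 1 from limma) in Col-0 and -0.73 (standard error 0.78, unadjusted p = 0.382) in ago10-1, and -1.19 over both genotypes (unadjusted p = 0.0331 from limma). The value over both genotypes ran from -1.50 (without ago10-1 BAP replicate 2, unadjusted p = 0.00822) to -0.86 (without ago10-1 BAP replicate 1, unadjusted p = 0.0739) with 1 library left out, and was -0.64 without the replicate 1 libraries (unadjusted p = 0.249, all from limma). The change in ago10-1 turned to 0.14 without ago10-1 BAP replicate 1. For the fits with 1 library left out the share of all genes called was not computed. Of the tested members ATMG01090 had the largest spread over the libraries (SD of log2 1.08).

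The next in Col-0 was ATMG00070, with 37.8, 36.5 and 64.9 normalized counts in mock and 20.53, 26.2 and 27.6 with BAP (log2 fold change -0.84, standard error 0.37, unadjusted p = 0.0581 from limma). These groups did not overlap. It had 25.7, 22.1 and 42.2 in ago10-1 mock and 27.0, 21.9 and 25.9 in ago10-1 BAP, which did overlap, and its log2 fold change over both genotypes was -0.53 (unadjusted p = 0.0542 from limma). Against Col-0 mock, ago10-1 mock gave -0.62 (unadjusted p = 0.145 from limma).

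In Col-0 the BAP and mock groups did not overlap for 3 of the 20 members (5.25% of all genes), lower for ATMG01090 and ATMG00070 and higher for ATMG00640. In ago10-1 they did not for 2 of 20 (9.2% of all genes), higher for ATMG00080 and lower for ATMG01120. ATMG01120 had 24.5, 22.9 and 31.02 normalized counts in ago10-1 mock and 15.7, 20.9 and 13.7 in ago10-1 BAP (log2 fold change -0.62, standard error 0.38, unadjusted p = 0.141 from limma). Without BAP, 3 of 20 members (6.96% of all genes), ATMG00520, ATMG00650 and ATMG00513, were lower in every ago10-1 library than in every Col-0 library. After BAP it was 0 of 20 (3.59% of all genes). The 2 members with the smallest p for ago10-1 over both treatments were also ATMG00513 (log2 fold change -0.61, unadjusted p = 0.0804) and ATMG00650 (-0.42, unadjusted p = 0.0839 from limma).

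ATMG00520 had the smallest p for the interaction. It had 40.2, 45.2 and 42.8 normalized counts in Col-0 mock and 41.1, 23.8 and 27.6 in Col-0 BAP. It had 26.9, 34.8 and 27.6 in ago10-1 mock and 33.7, 56.3 and 53.2 in ago10-1 BAP. With BAP replicates 2 and 3 lay below mock in Col-0 and above it in ago10-1, while replicate 1 lay within the range of its mock group in both. The difference of the BAP responses was 1.13 on the log2 scale (standard error 0.42, unadjusted p = 0.0221, adjusted p = 1.00 from limma). It passed the threshold of 0.01 without Col-0 BAP replicate 1 (1.35, unadjusted p = 0.00877) or ago10-1 BAP replicate 1 (1.36, unadjusted p = 0.00891 from limma). The share of all genes called in these fits was not computed. Without all replicate 1 libraries the difference was 1.56 (unadjusted p = 0.00881 from limma, background 0.0937%). The other tests of this row gave 0.64 with BAP in ago10-1 (unadjusted p = 0.0898), -0.52 for ago10-1 without BAP (unadjusted p = 0.106) and 0.62 after BAP (unadjusted p = 0.149 from limma). The next members by p were ATMG00090 for the interaction (0.84, standard error 0.55, unadjusted p = 0.155) and ATMG01090 for ago10-1 against Col-0 after BAP (1.24, standard error 0.94, unadjusted p = 0.230 from limma). The latter was 2.11 when ago10-1 BAP replicate 1 was left out and came to 0.67 when replicate 2 of that group was.

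Among the tested members ATMG00660 and ATMG00650 varied least (SD of log2 0.26 and 0.33). ATMG00660 ran from 73.9 to 126 normalized counts with a median of 101, and ATMG00650 from 16.6 to 35.7 with a median of 22.6. After ATMG01090 the widest was ATMG00060 (SD of log2 0.79), from 3.80 to 28.1 with a median of 11.5. Without the replicate 1 libraries it was called lower in ago10-1 over both treatments (unadjusted p = 0.00531 from limma, background 1.44%).

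The libraries of replicate 1 stood apart. Their comparison with the rest was chosen with earlier results of these data known, so its p-values here and below do not test a split chosen blind. Against replicates 2 and 3 of the same groups, 28.7% of all genes were called at an unadjusted p under 0.01, 15.6% higher and 13.1% lower. Of the 20 members 3 were called, all higher, a share near the 15.6% of all genes that were higher. They were the 3 abundant rows. ATMG00020 was higher by 1.16 on the log2 scale (standard error 0.19, unadjusted p = 7.18e-05, adjusted p = 0.00273), ATMG00030 by 0.80 (standard error 0.20, unadjusted p = 0.00218, adjusted p = 0.0138) and ATMG01390 by 0.62 (standard error 0.19, unadjusted p = 0.00692, adjusted p = 0.0278), all from limma over 12 libraries. The median of the 20 members was -0.06 and that of all genes -0.02. edgeR (background 27.9%) and DESeq2 (background 32.6%) called the same 3 rows. Without Col-0 BAP replicate 1, ago10-1 mock replicate 1 or ago10-1 BAP replicate 1 only ATMG00020 was called. ATMG01390 also lost its call without Col-0 BAP replicate 2 or 3, ago10-1 mock replicate 2 or ago10-1 BAP replicate 2. With any 1 library left out the log2 differences of ATMG00030 and ATMG01390 were at least 0.67 and 0.47. The share of all genes called in those fits was not computed.

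The summed levels of the 3 rows and of the other 39 were each set against replicate 1, and the difference between the sets was not tested. The sum of the 3 was higher in replicate 1 in 4 of 4 groups, by 1.93-fold (exact permutation of the replicate within each group, two-sided p = 0.0123, adjusted p = 0.0329 over 8 quantities, the smallest of 81 arrangements). The sum of the other 39 was higher in replicate 1 in 1 group and lowest in 2, with a ratio of 0.868 (exact permutation p = 0.259, adjusted p = 0.296). It ranged from 448 to 787 normalized counts, from 327 to 1067 reads. The 17 thin members that were tested had log2 differences of -0.69 to 0.49, and none was called. The highest, ATMG00690 (0.49, standard error 0.29) and ATMG00080 (0.47, standard error 0.29), lay within their errors of ATMG01390.

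**Figure D5:**
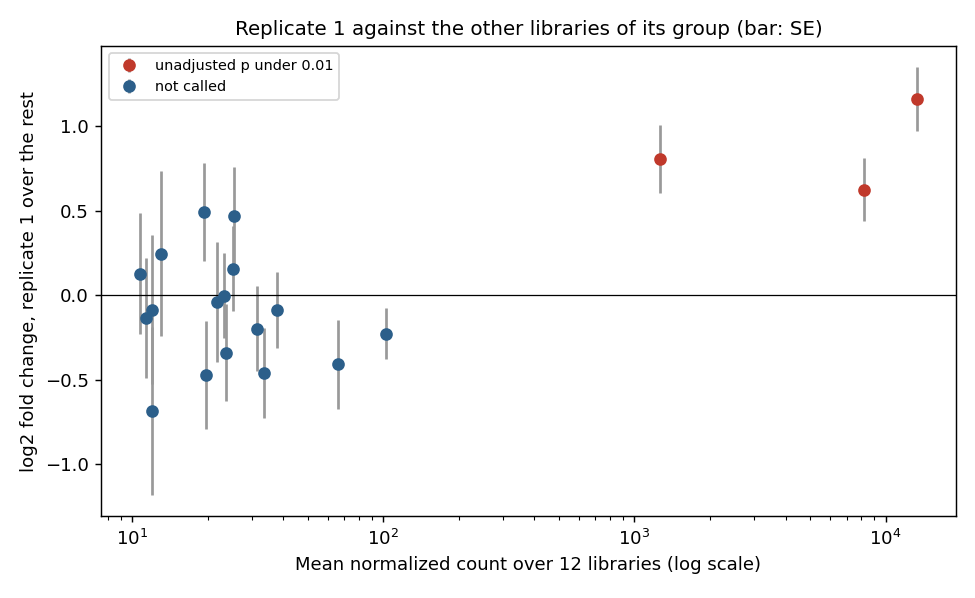
Log2 fold change of replicate 1 over the other libraries of its group (y axis, bar: standard error) against mean normalized count (x axis, log scale) for the 20 tested members. The 3 called rows lie between 0.62 and 1.16 at means above 1000, and the 17 others lie between -0.69 and 0.49 around 0.

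The abundant rows did not move by the same factor. ATMG00020 was 1.46 times ATMG01390 in Col-0 mock replicate 1, 2.28 times in Col-0 BAP replicate 1, 1.86 times in ago10-1 mock replicate 1 and 2.28 times in ago10-1 BAP replicate 1. In the 8 other libraries the ratio ran from 1.07 to 1.94. It was highest in replicate 1 in 3 of 4 groups, with a mean log2 difference of 0.54 (exact permutation p = 0.0247, adjusted p = 0.0395). The ratio of ATMG00020 to ATMG00030 was likewise highest in replicate 1 in 3 of 4 groups (0.36 on the log2 scale, exact permutation p = 0.0247, adjusted p = 0.0395), and that of ATMG01390 to ATMG00030 in 1 of 4 (-0.18, exact permutation p = 0.259).

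Other measures moved with replicate 1, and their part in its levels was not tested. It had the fewest reads on genes in 4 of 4 groups (19394256 to 23003052, against 21327376 to 34899796 in the others). The summed plastid-encoded rows were lowest in replicate 1 in 4 of 4 groups, with a ratio of 0.779 (exact permutation p = 0.0123, adjusted p = 0.0329), so the rows of the other organelle did not stand higher there. In this comparison 28.7% of all genes were called. Of the 5 root stem cell and patterning markers 1 was called higher and 1 lower, and PLT2, SHR and SCR were not called. WOX5, which marks the quiescent centre, was higher by 1.21 on the log2 scale (standard error 0.31, adjusted p = 0.0145 from limma). It was thinly read, with a median of 18.1 normalized counts over the libraries. PLT1, a factor of the stem cell niche, was lower by a log2 difference of -0.43 (standard error 0.13, adjusted p = 0.0314 from limma). The 3 root cap markers gave 0 calls. The 6 green shoot markers summed to 336 to 1035 normalized counts in replicate 1 and 142 to 434 in the others, highest in 2 of 4 groups. Their sum ranged from 142 to 383 in Col-0 mock, 187 to 1035 in Col-0 BAP, 200 to 357 in ago10-1 mock and 324 to 733 in ago10-1 BAP. Of the 6 markers 3 could be tested, and 0 were called. All 3 were above 0 in replicate 1, with a median log2 difference of 0.97 against -0.02 for all genes. All 3 were also above 0 with BAP, with medians of 0.70 in Col-0 and 0.55 in ago10-1.

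Nuclear genes that serve mitochondria were followed in 4 lists. In the comparisons of genotype and treatment 1 of their tested genes was called, with BAP over both genotypes, where 1.48% of all genes were. NDB2 (AT4G05020), an external NAD(P)H dehydrogenase of the alternative respiratory pathway, rose by 0.28 on the log2 scale with BAP over both genotypes (standard error 0.08, unadjusted p = 0.00533, adjusted p = 0.605 from limma). In replicate 1, 13.1% of all genes were called lower. Of 36 genes for organelle RNA and DNA maintenance 6 were called lower, a share near that of all genes. The median log2 difference of the 36 was -0.25, with 7 above 0. Among the called were RIP1, an RNA editing factor (-0.51), and AT5G14580, a polynucleotide phosphorylase (-0.59). Of 59 respiratory chain and ATP synthase subunits and assembly factors 9 were called lower, again near the share of all genes (median -0.11, 8 above 0). Among the called were COX6B (-0.28) and the cytochrome c oxidase assembly protein HCC1 (-0.44). Of 10 import and chaperone genes 6 were called lower (median -0.44, 0 above 0), among them the outer membrane import receptors TOM20-3 (-0.48) and TOM20-2 (-0.46). Of 14 genes of alternative respiration and mitochondrial stress 2 were called higher, a share near the 15.6% of all genes. They were AOX1A, the alternative oxidase (0.44), and AT5G51440 (0.71). Of 30 tested plastid rows 4 were called lower, near the 13.1% of all genes (median -0.28, 4 above 0). With BAP over both genotypes 1 of them, ATCG00480, was called higher (log2 fold change 0.67, unadjusted p = 0.00845 from limma), against 1.15% of all genes.

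The recovered reads of some members came in even numbers. Over all rows, 75.7% of the values between 1 and 30 reads were even, and over the members 65.3%. All values were even in 12 of 12 libraries for ATMG00520 and ATMG01090 and wherever read for ATMG00040, ATMG00560 and ATMG01080. Of 21166 rows read in at least 8 libraries 3374 (15.9%) were even throughout, and of the 35 members read in as many libraries 4 were. The sources used here do not say whether both ends of a fragment were counted. Where they were, the 2, 6 and 2 reads of ATMG01090 in Col-0 BAP would stand for fewer fragments than reads, and limits drawn from reads cover counting error only.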

How the data were processed

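RNA of root tips was sequenced in 12 libraries. Alignment with STAR, gene counting by featureCounts on TAIR10 and normalization by DESeq2 size factors were done by the authors. The signal they deposited is this normalized count for 32833 genes. Strandedness, RNA selection and tool versions are not given in the sources used here. Whole reads were recovered for 100% of the values (tolerance 0.001). Each comparison was fitted with limma 3.58.1 (trend, two-sided, Benjamini-Hochberg adjustment) in R 4.3.3 on log2 of the normalized count plus 1, for 19206 genes whose mean reached 10. Comparisons of 2 groups used their own 6 libraries and the others all 12. edgeR 4.0.16 and DESeq2 1.42.0 ran on the recovered reads. The fits were tested on simulated data with 100 genes changed 2-fold and 100 changed 4-fold among 19206, of whose unchanged genes 0.863% were called with BAP in Col-0. No 2 libraries of a group were alike (chi-square per gene 14.0 to 178). Samples of the same replicate number deviated together, with correlations of 0.49 to 0.77 between ago10-1 mock and BAP and 0.27 to 0.84 between the BAP groups, though Col-0 BAP replicate 3 correlated more with ago10-1 BAP replicate 2 (0.78), over genes with a mean of at least 50, so a fit with the replicate number as a block was added there. Elsewhere the block was replicate 1 against the rest.

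Named members are the 10 of highest mean, those called or, with none, the 2 of smallest p per comparison, the 2 widest and 2 narrowest in spread, up to 3 of each role class by mean, and up to 2 called genes per nuclear list. ATMG00640, ATMG00080 and the other members of counts of 3 or fewer were named after their values were seen. Members, lists and the comparison of replicate 1 with the rest were chosen with earlier results of these data known.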

Additional observations from a re-analysis of the deposited data

How the results depend on the processing

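Some uncalled values turned direction. With 1 library left out, the log2 fold change of ATMG00020 with BAP ran from -0.21 (without Col-0 BAP replicate 1) to 0.84 in Col-0 and from -0.17 (without replicate 1 of that group) to 0.63 in ago10-1 BAP against mock, and that of ATMG01090 in ago10-1 from -1.30 to 0.14. Without all replicate 1 libraries ATMG00020 in Col-0 was at -0.046 and ATMG01090 in ago10-1 at 0.32. The summed level with BAP in Col-0 ran from -0.31 to 0.57 (log2) with 1 library left out. The other 17 named changes kept their direction. The count of members called stayed at 0 with edgeR, DESeq2, pseudocounts of 0.5 and 5, minimum means of 1 and 50 and scaling to nuclear reads in the 7 comparisons of genotype and treatment. The replicate block also left 0 members called in each. The block was the replicate number in the 2 comparisons that allow it and replicate 1 against the rest in all 7. With the replicate number as a block, the smallest unadjusted p of a member with BAP in ago10-1 was 0.0176, against 0.0898 without it. That of ATMG00020 was 0.0216 against 0.506 (all from limma). Of all genes 5.1% were called at under 0.01 with that block and 0.568% without. Under 0.05 lay 2835 of 19206 genes with that block and 793 without. With 1 library left out, the count ran from 0 to 1 for the interaction and from 1 to 3 for replicate 1 against the rest. It ran from 0 to 1 for BAP over both genotypes (without ago10-1 BAP replicate 2). The share of all genes called was not computed for these fits. Without the replicate 1 libraries, chosen after seeing the data, 1 member was called in the interaction and 1, ATMG00060, for ago10-1 over both treatments (both given above). With a minimum mean of 50, which leaves 5 members, the median of the members in replicate 1 was 0.62 instead of -0.06. With a minimum mean of 1, ATMG01170 was called lower there as well. The summed level without rRNA and tRNA rows, and with respiratory chain and ATP synthase rows only, was not run, since the IDs could not be assigned to these classes.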
